A study of Mus musculus with 35 samples.

Results

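The genes described here are 30 genes of sterol and fatty acid synthesis, taken as a listed set by gene symbol from the 54752 genes measured in 35 RNA-seq libraries of mouse fibroblasts under reprogramming to pluripotent cells. All 30 were found, and all 30 passed the filter on low counts. By role they are 8 enzymes of the mevalonate pathway (Acat2, Hmgcs1, Mvk, Pmvk, Mvd, Idi1, Fdps and Ggps1), 11 enzymes from squalene to cholesterol (Fdft1, Sqle, Lss, Cyp51, Tm7sf2, Msmo1, Nsdhl, Hsd17b7, Ebp, Sc5d and Dhcr7), 5 regulators (Srebf1, Srebf2, Scap, Insig1 and Stard4) and 6 enzymes of fatty acid synthesis (Acly, Acaca, Fasn, Elovl6, Scd1 and Scd2). The libraries came from passage 2 embryonic fibroblasts, isolated at day 13.5 of gestation from a cross of Oct4-GFP transgenic males (CBA/CaJ × C57BL/6J) with females of the 129 strain family. The fibroblasts were infected for 48 hours with retroviruses and then moved to iCD3 medium with Rock inhibitor, where day 0 is the change of medium. The JEGS group, sampled on days 2, 4 and 6, received Jdp2, Glis1, Esrrb and Sall4. Each of the 4 leave-out arms received 3 of these factors and was sampled daily from day 0 to day 7: the arm without Esrrb, the arm without Glis1, the arm without Jdp2 and the arm without Sall4. All 35 libraries therefore share the infection, the transgene and, after day 0, the medium, and no uninfected library was analysed here. No arm and day had more than 1 library, so the 4 leave-out arms stood as the libraries of a day, and the days as the libraries of an arm. The labels do not say that these were separate cultures, so the p-values speak for the variation among these libraries alone, which may be technical.

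Cells make cholesterol from acetyl-CoA by way of mevalonate, isoprenoid diphosphates, squalene and lanosterol. Fatty acids come from the same acetyl-CoA, which Acly releases from citrate, Acaca carboxylates and Fasn polymerises. Genes of both routes are classical targets of the SREBP transcription factors, encoded by Srebf1 and Srebf2. Scap escorts the SREBP precursors out of the endoplasmic reticulum when membrane cholesterol is low, and Insig1 retains them there when it is high. Cultured fibroblasts can take cholesterol from serum lipoproteins, and the pathway is known to rise in cells given less of it.

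The libraries held 1266379 to 3608456 expected counts each, with a median of 1973102, of which 4912 to 43060 fell on the 30 genes. The lowest count of any member in any library was 14, for Pmvk. The delivered factors followed the sample titles: Esrrb was at 70.45 TPM (a level scaled by transcript length and library total) or less without it, Glis1 at 8.98 or less, Jdp2 at 43.5 or less and Sall4 at 7.37 or less. The 8 fibroblast markers summed to at least 516 TPM in every library, while adipocyte markers, the marker list of another lipid-making cell, summed to between 13.4 and 53.4 TPM, with Lep listed at 0 in JEGS and in all 4 leave-out arms. The share of 50-base transcript windows that also occur in another gene was 39.1% for Acat2, 30.4% for Acaca, 26.2% for Fdps and 17.7% for Idi1, so the levels of these 4 are the least certain. Fewer cells using a gene and less of its RNA per cell cannot be told apart in such bulk libraries.

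RefSeq promoter windows (GRCm38.p6, 250 bases before to 50 bases after the start) were matched for 24 of the 30 genes. Fdps, Fdft1, Sqle, Stard4, Scd1 and Scd2 had none. The letters CCAAT, the box bound by the NF-Y cofactor of SREBP, occurred on either strand in 20 of the 24, against 41.1% of all 27025 genes with a window. The GC box GGGCGG, bound by Sp1 family factors, occurred in 19 of the 24, against 38.2%. The core CACNCCAC of a sterol response element occurred in 3 (Acat2, Hmgcs1 and Insig1), against 7.12%, and the longer TCACNCCAC, which contains it, in Hmgcs1 alone, against 1.44%. The E box CACGTG, which SREBP-1 and the USF factors can also bind, occurred in 5, against 8.09%. A gene with several starts had several windows, and a match is a description of letters, not of binding. The bases before the start are given below, in the direction of transcription, for 4 genes: Hmgcs1 and Insig1 because they hold a core match, and Mvd and Nsdhl because they had the largest first-day changes among genes with a window. Capitals mark CCAAT or its reverse complement and, in Hmgcs1 and Insig1, the core or its reverse complement.
Hmgcs1 (GRCm38, chr13:119690101-119690350, plus strand): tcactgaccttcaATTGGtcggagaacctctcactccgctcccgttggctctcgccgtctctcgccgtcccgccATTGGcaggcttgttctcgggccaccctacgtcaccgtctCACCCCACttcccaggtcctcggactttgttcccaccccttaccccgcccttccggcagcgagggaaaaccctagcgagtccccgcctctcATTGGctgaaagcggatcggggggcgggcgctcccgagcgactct
Insig1 (GRCm38, chr5:28071162-28071411, plus strand): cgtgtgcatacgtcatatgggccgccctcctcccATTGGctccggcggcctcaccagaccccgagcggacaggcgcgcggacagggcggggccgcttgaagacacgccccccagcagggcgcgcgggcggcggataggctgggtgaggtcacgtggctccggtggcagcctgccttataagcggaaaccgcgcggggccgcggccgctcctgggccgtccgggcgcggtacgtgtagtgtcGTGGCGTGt
Mvd (GRCm38, chr8:122443423-122443672, minus strand): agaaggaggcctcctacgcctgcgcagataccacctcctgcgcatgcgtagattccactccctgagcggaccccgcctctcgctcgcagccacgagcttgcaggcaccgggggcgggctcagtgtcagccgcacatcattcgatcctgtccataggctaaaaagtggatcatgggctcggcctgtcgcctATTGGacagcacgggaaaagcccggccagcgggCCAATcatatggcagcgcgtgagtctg
Nsdhl (GRCm38, chrX:72918271-72918520, plus strand): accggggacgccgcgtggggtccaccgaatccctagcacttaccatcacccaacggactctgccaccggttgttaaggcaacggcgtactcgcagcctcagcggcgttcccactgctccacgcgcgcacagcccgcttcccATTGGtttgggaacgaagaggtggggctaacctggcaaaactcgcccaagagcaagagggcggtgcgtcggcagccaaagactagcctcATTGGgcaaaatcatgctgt

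Levels of the 30 genes spread over a wide range. By their median over the 35 libraries, Scd2, a stearoyl-CoA desaturase of many tissues, was highest at 574 TPM, followed by Fasn, the fatty acid synthase, at 316 TPM and Fdps, which makes farnesyl diphosphate, at 276 TPM. Ggps1, which makes geranylgeranyl diphosphate, was lowest at 14.5 TPM. Scd1, the other desaturase, varied most, 17.6-fold between 44.3 TPM on day 0 without Esrrb and 781 TPM on day 5 without Glis1. Hsd17b7, a sterol 3-ketoreductase, varied 11.4-fold, and Scap the least, 2.57-fold. The heat map of all libraries is centred on the day 0 libraries, so its day 0 columns are pale by construction. From day 1 onward most genes lie above that level.

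**Figure D1:**
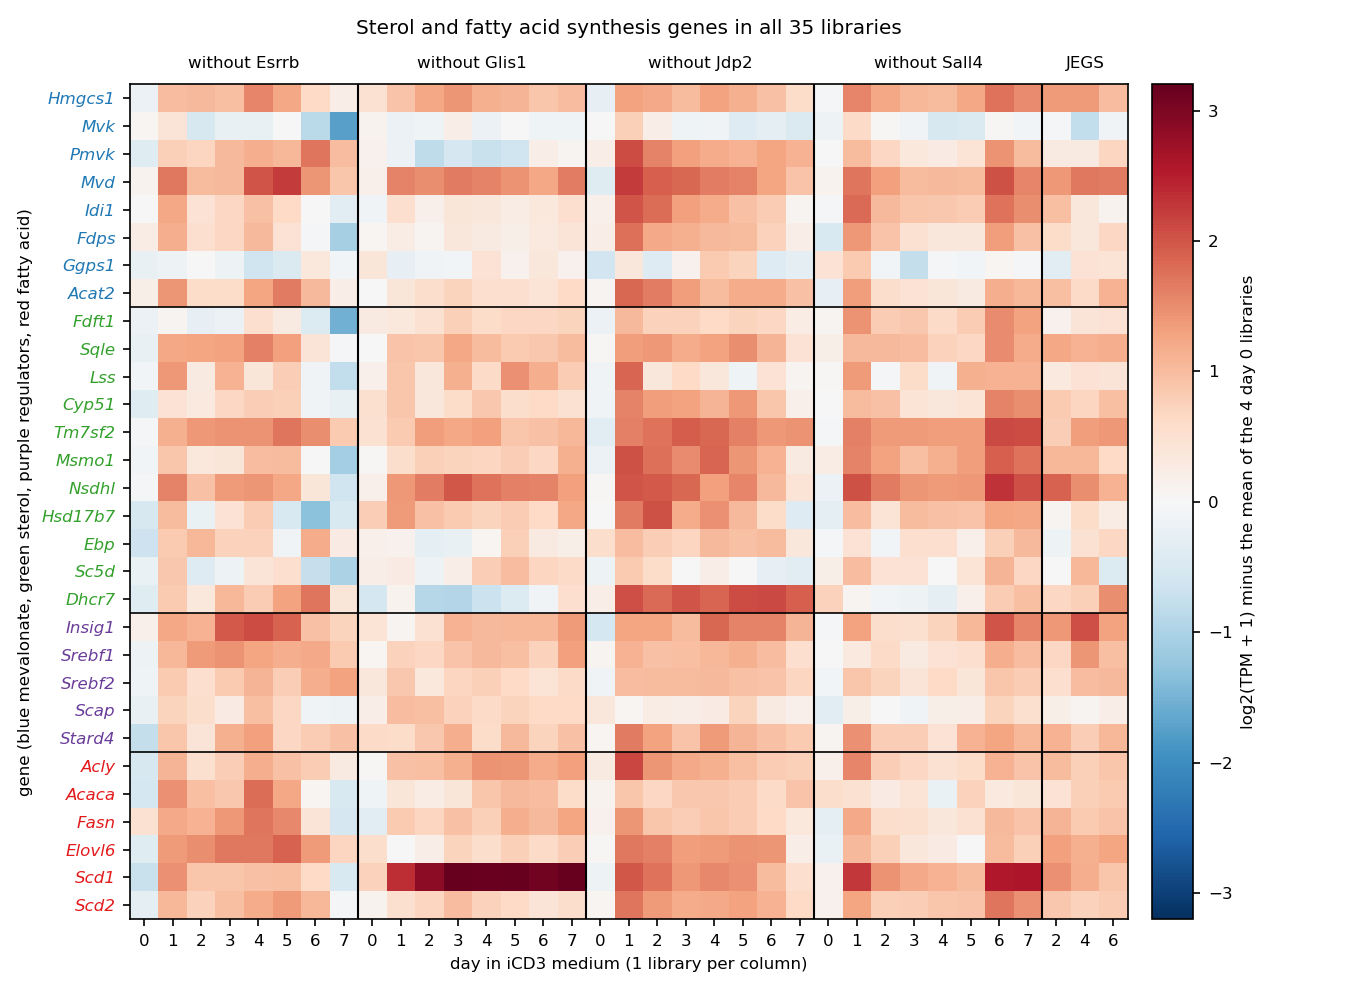
Level of each of the 30 genes (rows, coloured by role) in each of the 35 libraries (columns, 1 library each, by arm and day), as log2(TPM + 1) minus the mean of the 4 day 0 libraries. Day 0 columns are near 0 by construction, most genes are above 0 from day 1, and Scd1 without Glis1 is the darkest row. On day 7 without Esrrb the enzyme rows lie on both sides of 0, with Mvk and Fdft1 among those below and Pmvk and Mvd among those above.

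The first comparison was day 1 against day 0, the first day in iCD3 medium, in the 4 leave-out arms. Of the 30 genes 25 rose and none fell, with a median log2 fold change of 1.10 against 0.04 over all 18135 genes tested. The test was edgeR's quasi-likelihood test on expected counts with arm and day as terms, called at an adjusted p under 0.05 (Benjamini-Hochberg over all genes), which 13.9% of all genes passed and 7.59% passed as higher. All 30 estimates were above 0. In TPM, 18 genes had all 4 day 1 libraries above all 4 day 0 libraries, which 4.08% of the 19119 genes at 1 TPM or more in at least 3 libraries did.

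All 6 fatty acid enzymes rose on day 1. Scd1, which puts the double bond into stearate, stood at 44.3, 121, 64.3 and 80.4 TPM on day 0 in the arms without Esrrb, Glis1, Jdp2 and Sall4, and at 200.5, 375, 292 and 352 TPM on day 1. The lowest day 1 library lay above the highest day 0 library, and the log2 fold change was 2.03 ± 0.39 (standard error; adjusted p = 0.00046). Acly went from 75.3, 112, 132.5 and 121 TPM to 231, 208, 476 and 323 TPM in the same order of arms. Its groups did not overlap either, with a log2 fold change of 1.49 ± 0.22 (adjusted p = 1.55e-05). Fasn went from 249.8, 138, 195.0 and 146 TPM to 414, 316, 477 and 415 TPM, again without overlap, with a log2 fold change of 1.45 ± 0.25 (adjusted p = 0.000126). Scd2 rose in all 4 arms, from 252 to 343 TPM on day 0 to between 443 and 1027 TPM on day 1. Acaca, the first committed step, and the elongase Elovl6 also rose in the test, but their day 0 and day 1 libraries overlapped in TPM. Acaca without Sall4 was at 23.96 TPM on day 0 and 22.5 on day 1, and Elovl6 without Glis1 at 26.0 and 17.5 TPM. Expected counts, on which the test ran, went up from 152 to 264 for Acaca there and down from 186 to 142 for Elovl6.

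In the mevalonate pathway 6 of 8 enzymes rose. Mvd, the decarboxylase that yields isopentenyl diphosphate, went from 23.5, 24.4, 16.3 and 23.35 TPM to 71.5, 66.6, 106 and 72.9 TPM, with a log2 fold change of 1.82 ± 0.30 (adjusted p = 8.04e-05). Hmgcs1, the synthase at the head of the pathway whose promoter holds the sterol response element shown above, went from between 61.5 and 103 TPM to between 139.7 and 218 TPM. Both genes were higher on day 1 in every arm, without overlap. Pmvk, which adds the second phosphate to mevalonate, passed the test, but without Glis1 it was at 22.8 TPM on day 0 and 17.7 on day 1. The 2 that did not pass were Mvk, the mevalonate kinase (log2 fold change 0.33 ± 0.25, adjusted p = 0.418), and Ggps1, which leads to protein prenylation rather than to sterols (0.01 ± 0.23, adjusted p = 1).

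Among the squalene and sterol enzymes 9 of 11 rose. Nsdhl, which removes the C4 methyl groups of the sterol nucleus together with Msmo1, went from 28.8, 33.5, 30.7 and 26.05 TPM to 90.5, 78.6, 122 and 124 TPM, with a log2 fold change of 1.75 ± 0.34 (adjusted p = 0.000605). Lss, which closes squalene epoxide to lanosterol, went from 37.6, 44.95, 37.2 and 41.2 TPM to 107, 74.7, 149 and 106 TPM, with a log2 fold change of 1.42 ± 0.27 (adjusted p = 0.000501). Neither gene had overlapping groups. Dhcr7, the last reductase before cholesterol on one branch, passed the test, but without Sall4 it was at 33.7 TPM on day 0 and 21.1 on day 1. Its expected counts, on which the test ran, went the other way in this arm, from 33 to 65, in libraries of 2041292 and 1939226 counts. The 2 that did not pass were Fdft1, the squalene synthase (0.68 ± 0.28, adjusted p = 0.114), and the desaturase Sc5d (0.66 ± 0.25, adjusted p = 0.0737), both of which were higher in TPM on day 1 in all 4 arms.

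Of the 5 regulators 4 rose. Srebf2, the SREBP gene most tied to sterol synthesis, stood at 76.6, 109, 78.6 and 79.7 TPM on day 0 and at 154, 154, 168 and 158 TPM on day 1. Srebf1, tied more to fatty acid synthesis, went from 36.8, 43.25, 43.6 and 42.1 TPM to 87.5, 69.6, 90.45 and 51.6 TPM. Day 1 lay above day 0 without overlap for both. Insig1 and Stard4, a carrier of sterol between membranes, passed the test, yet in the arm without Glis1 Insig1 was at 48.0 TPM on day 0 and 37.6 on day 1. Scap did not pass (0.43 ± 0.17, adjusted p = 0.102).

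**Figure D2:**
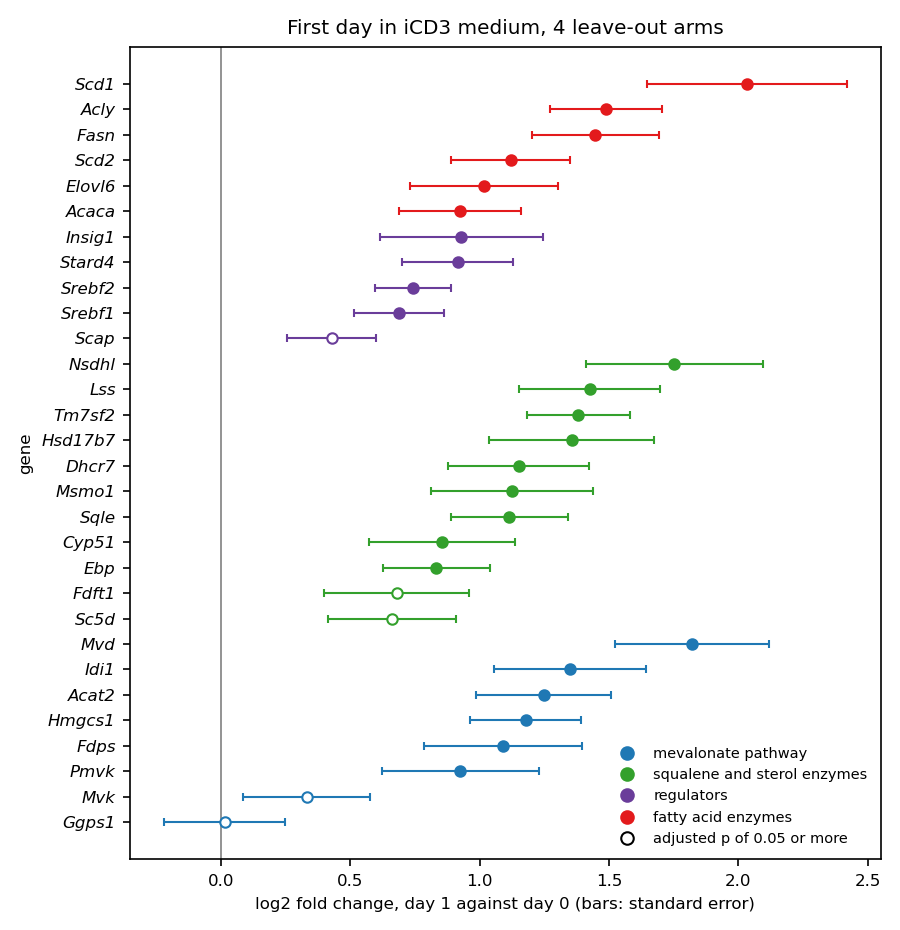
Log2 fold change of each of the 30 genes on day 1 against day 0 over the 4 leave-out arms (points, coloured by role; bars, standard error), with filled points for adjusted p under 0.05. All 30 points lie above 0, and 25 are filled, from Scd1 at 2.03 to Srebf1 at 0.69.

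The size of the step varied over the arms. The summed level of the 30 genes went from 1637 to 3739 TPM without Esrrb, from 1799 to 5414 TPM without Jdp2, from 1722 to 4404 TPM without Sall4, and from 1957 to 2990 TPM without Glis1. On day 1 without Glis1 23 of the 30 genes were above their day 0 level, against 30 without Esrrb, 29 without Jdp2 and 28 without Sall4. Of all genes at 1 TPM or more in at least 3 libraries, 38.2% were above day 0 without Glis1 and 51.8% without Esrrb. The shares were 46.8% without Jdp2 and 38.7% without Sall4. Whether the step differed between arms was not tested, since each arm had 1 library on each day.

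Further lists of lipid genes were counted in the same test. Of 28 further genes of fatty acid and lipid synthesis 10 rose and none fell, with a median log2 fold change of 0.61. They included Acacb, the mitochondrial acetyl-CoA carboxylase (2.67 ± 0.54, adjusted p = 0.000891), and Acss2, which makes acetyl-CoA from acetate (1.28 ± 0.28, adjusted p = 0.00231). Of 20 genes of sterol transport and storage 6 rose, among them the sterol transporter genes Abcg1 (1.98 ± 0.41, adjusted p = 0.00104) and Abca2 (1.56 ± 0.22, adjusted p = 8.93e-06). Of 11 tested genes that use isoprenoids outside sterol synthesis 1 rose, Rabggta of Rab prenylation (0.73 ± 0.19, adjusted p = 0.00923). None of 13 further regulators, such as Insig2, the SREBP proteases and the NF-Y subunits, passed in edgeR, with 0 at an unadjusted p under 0.05 and 0 by DESeq2 and by limma-trend, a linear model on log2(TPM + 1). Over the same day 6 of 8 fibroblast markers fell, their sum going from between 3823 and 7537 TPM to between 1758 and 2240 TPM, and the 15 cell cycle genes had a median of -0.60 with 0 passing in edgeR, 4 at an unadjusted p under 0.05 and 0 by DESeq2 and by limma-trend. The part of these in the change of the synthesis genes was not tested.

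After day 1 the 4 arms took different courses, as the plot of summed levels shows. Without Esrrb the 30 genes summed to 2904 TPM on day 2, rose again to 4078 TPM on day 4 and were at 1712 TPM on day 7, near the 1637 TPM of day 0. Without Jdp2 the sum was highest on day 1, at 5414 TPM, stayed between 3322 and 4271 TPM from day 2 to day 6, and was 2517 TPM on day 7. Without Glis1 it lay between 2990 and 3743 TPM on every day from day 1 to day 7. Without Sall4 it went down from 4404 TPM on day 1 to 2722 TPM on day 4 and up to 4931 TPM on day 6 and 4289 TPM on day 7. The day on which single genes peaked differed likewise: 19 of the 30 peaked on day 1 without Jdp2, 16 on day 6 without Sall4, and 10 on day 4 without Esrrb, while without Glis1 no day held more than 9. The shares of all genes that peaked on these days were not computed.

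**Figure D3:**
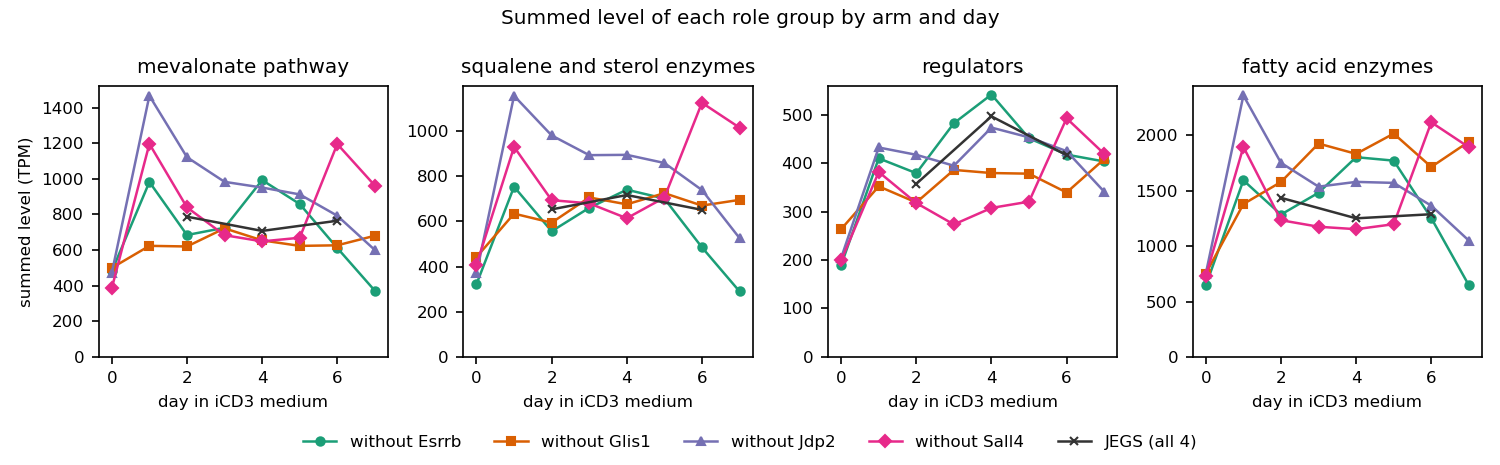
Summed level in TPM of the mevalonate, sterol, regulator and fatty acid genes (panels) by day in iCD3 medium, 1 library per point, for the 4 leave-out arms and JEGS (lines). All panels step up between day 0 and day 1; without Sall4 there is a second maximum on day 6, and without Esrrb the enzyme groups are low on day 7.

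The later course was compared as late days (5 to 7) against early days (1 to 3). On the mean of the 4 arms 3 of the 30 genes passed, where 17.8% of 17679 genes did, and the median log2 fold change was -0.09 against 0.03 over all genes. Dhcr7 rose (0.53 ± 0.14, adjusted p = 0.00892), and Hsd17b7 (-0.52 ± 0.15, adjusted p = 0.0162) and Idi1, the isopentenyl diphosphate isomerase (-0.43 ± 0.14, adjusted p = 0.0344), fell. The call of Idi1 was kept in 17 alternatives and lost in 12, limma-trend among them. The count was 9 without the day 5 library of the arm without Esrrb and 5 without the day 5 library of the arm without Jdp2. With days 2 and 3 set against days 6 and 7 it was 6, where 18.4% of genes passed.

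Whether this change differed between arms was tested for each arm against the mean change of the other 3. In edgeR none of the 30 genes passed in any of the 4 tests, in which 5.66% (without Esrrb), 2.82% (without Glis1), 0.634% (without Jdp2) and 0.662% (without Sall4) of all genes did. At an unadjusted p under 0.05 there were 1, 3, 9 and 9 of the 30 in the same order, and DESeq2 and limma-trend called 0. On simulated data the edgeR test of the arm without Sall4 recovered 46 of 100 genes with a log2 change of 1. The estimates still leaned by arm. Without Jdp2 29 of 30 were below 0, with a median of -0.49, and without Sall4 28 of 30 were above 0, with a median of 0.43, where the medians over all genes were both 0.01. Without the day 5 library of the arm without Esrrb, 4 passed in the test of that arm and 2 in the test of the arm without Glis1. The 4 tests share libraries and sum to 0.

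These counts depended on which days were called early and late. With days 2 and 3 against days 6 and 7, 19 of the 30 genes passed as higher without Sall4, where 2.68% of 16820 genes passed in either direction, and all 30 estimates were above 0, with a median of 0.83. Scd1 without Sall4 stood at 199.7 and 169.9 TPM on days 2 and 3 and at 433 and 444 TPM on days 6 and 7, and its change exceeded that of the other arms by 1.67 ± 0.27 (adjusted p = 0.00152). Nsdhl without Sall4 was at 96.2 and 80.1 TPM, then at 150.4 and 126 TPM (1.54 ± 0.26, adjusted p = 0.00247). Lss without Sall4 was at 38.8 and 61.1 TPM, then at 87.3 and 87.6 TPM (1.31 ± 0.18, adjusted p = 0.000321). All 3 were higher on both later days than on both earlier ones, and this definition leaves out day 1 and day 5, when the arm's summed level was 4404 and 2892 TPM. In the same definition 7 of the 30 passed as lower without Esrrb (10.7% of genes in either direction), 7 as lower without Jdp2 (4.3%) and 0 without Glis1 (6.26%). Of the 15 cell cycle genes, 4 had a lower late change without Sall4 than in the other arms in the test of days 1 to 3 against 5 to 7, with a median of -1.52, 8 passing by DESeq2 and 0 by limma-trend. Their part in the result was not tested.

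Each leave-out arm was then set against the mean of the other 3 over the 8 days, with day as a term. The 4 comparisons share all 32 libraries and sum to 0, so a gene high in one arm is low in another by construction. Cell cycle genes differed strongly between the same arms: of 15, 14 were higher without Esrrb, 15 higher without Jdp2, 7 lower without Glis1 and 15 lower without Sall4. The 4 delivered factors together made up 6892 to 9629 TPM without Sall4 and 7214 to 11220 TPM without Glis1, against 1950 to 5240 TPM without Esrrb and 1023 to 4598 TPM without Jdp2. The part of neither in the synthesis genes was tested.

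Without Esrrb 15 of the 30 genes were lower, 1 was higher and 14 did not pass, where 42.8% of 18135 genes passed and 21.9% passed as lower, and the median log2 fold change was -0.32 against -0.01 over all genes. The squalene and sterol enzymes held 8 of the 15. Scd1 had its lowest level in this arm on all 8 days, at 44.3 TPM at the lowest, 136 at the median and 200.5 at the highest, where the medians of the other arms were 185 to 639.7 TPM. Its log2 fold change was -1.41 ± 0.24 (adjusted p = 1.77e-05). Fdft1, which makes squalene, was also lowest here on all 8 days, between 14.4 and 64.0 TPM with a median of 38.2 (-0.91 ± 0.17, adjusted p = 8.34e-05). Hsd17b7 was lowest here on 6 of 8 days, between 7.13 and 39.6 TPM with a median of 14.97 (-1.10 ± 0.19, adjusted p = 3.53e-05). Msmo1 (-0.81 ± 0.19, adjusted p = 0.000796), Nsdhl (-0.75 ± 0.20, adjusted p = 0.00312) and Sc5d (-0.57 ± 0.15, adjusted p = 0.00226) were lower too. In each of these 6 the range over the days overlapped that of the other arms. The elongase Elovl6 was the 1 gene that was higher. Of the 5 regulators, Scap and Stard4 were lower and Srebf1, Srebf2 and Insig1 did not pass. DESeq2 and limma-trend each called 1 of the 5. In TPM Scap was above the mean of the other arms on 4 of 8 days. Its median was 43.3 TPM, against 52.2, 38.5 and 36.6 TPM without Glis1, Jdp2 and Sall4. The arm's last days weighed in the count over the 30 genes, which was 10 without its day 6 library and 9 without its day 7 library.

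Without Glis1 the set went both ways. Of the 30 genes 4 were higher and 5 lower, where 36.3% of all genes passed, and the median was 0.04 against 0.01. Scd1 had its highest level in this arm on all 8 days, at 121 TPM at the lowest, 639.7 at the median and 781 at the highest. It differed from the other 3 arms by 1.77 ± 0.20 (adjusted p = 3.97e-08). Scd2, named here after its value was seen, had a log2 fold change of -0.27 ± 0.13 in the same test (adjusted p = 0.123). The ratio of Scd1 to Scd2 in TPM was 0.355 on day 0 without Glis1, 0.846 on day 1 and between 1.06 and 1.61 from day 2 to day 7, while in the libraries of the other arms and of JEGS it lay between 0.170 and 0.516. Scap was the other clear rise, between 37.8 and 65.1 TPM with a median of 52.2, above the mean of the other arms on 8 of 8 days (0.64 ± 0.09, adjusted p = 3.02e-06).

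On the other side stood Pmvk and Dhcr7. Pmvk without Glis1 was at 11.15 TPM at the lowest, 15.7 at the median and 24.03 at the highest, the lowest of the leave-out arms on 7 of 8 days (-1.16 ± 0.18, adjusted p = 9.77e-06). Dhcr7 was at 9.94, 13.8 and 29.6 TPM, the lowest on 6 of 8 days (-1.14 ± 0.16, adjusted p = 1.42e-06). Expected counts in this arm were only 14 to 48 for Pmvk and 30 to 113 for Dhcr7, so the level of a single day is uncertain. Ebp, the sterol isomerase upstream of Dhcr7, was lower as well (-0.49 ± 0.12, adjusted p = 0.0019), and so were Idi1 (-0.47 ± 0.17, adjusted p = 0.0305) and Srebf2. The group of mevalonate enzymes as a whole did not move one way, with 1 higher (Ggps1) and 2 lower.

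Without Jdp2 4 of the 30 were higher and none lower, where 23.5% of all genes passed, with a median of 0.08 against 0.01. Dhcr7 was at 23.1 TPM at the lowest, 81.0 at the median and 90.0 at the highest, the highest of the leave-out arms on 7 of 8 days (1.47 ± 0.14, adjusted p = 3.83e-09). Pmvk was at 23.9, 49.0 and 89.6 TPM and likewise highest on 7 of 8 days (0.81 ± 0.16, adjusted p = 0.000388). Acat2, the cytosolic thiolase (0.40 ± 0.14, adjusted p = 0.0411), and Ebp (0.39 ± 0.11, adjusted p = 0.0105) were the others. The call of Acat2 was lost in 23 of the 39 alternatives run for it, DESeq2 among them. Side by side, the log2 fold changes without Glis1 and without Jdp2 were -1.14 and 1.47 for Dhcr7, -1.16 and 0.81 for Pmvk, and -0.49 and 0.39 for Ebp, in comparisons that share all libraries. The count was 8 without the day 7 library of the arm without Jdp2.

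Without Sall4 9 of the 30 were higher and 2 lower, where 41.8% of all genes passed and 22.3% passed as higher, with a median of 0.17 against 0.00 over all genes. The count of 11 was 4 with limma-trend and 4 with no day term. Of the 9, 6 were squalene and sterol enzymes. Fdft1 was at 46.8 TPM at the lowest, 78.9 at the median and 127 at the highest, the highest of the leave-out arms on 6 of 8 days (0.77 ± 0.15, adjusted p = 0.000164). Idi1 was at 35.6, 74.4 and 133.5 TPM (0.64 ± 0.16, adjusted p = 0.00197). Msmo1 (0.63 ± 0.17, adjusted p = 0.00335), Sc5d (0.55 ± 0.14, adjusted p = 0.00171), Hsd17b7 (0.52 ± 0.17, adjusted p = 0.0163) and Nsdhl (0.52 ± 0.18, adjusted p = 0.0236) followed. In TPM Hsd17b7 and Nsdhl were each above the mean of the other arms on only 4 of 8 days. The median of Hsd17b7 was 38.6 TPM, against 14.97, 34.8 and 42.6 TPM without Esrrb, Glis1 and Jdp2. That of Nsdhl was 88.1 TPM, against 64.3, 91.8 and 82.9 TPM in the same order. Side by side, the log2 fold changes without Esrrb and without Sall4 were -0.91 and 0.77 for Fdft1 and -1.10 and 0.52 for Hsd17b7, again over shared libraries. The 2 genes lower without Sall4 were Dhcr7 and Acaca.

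**Figure D4:**
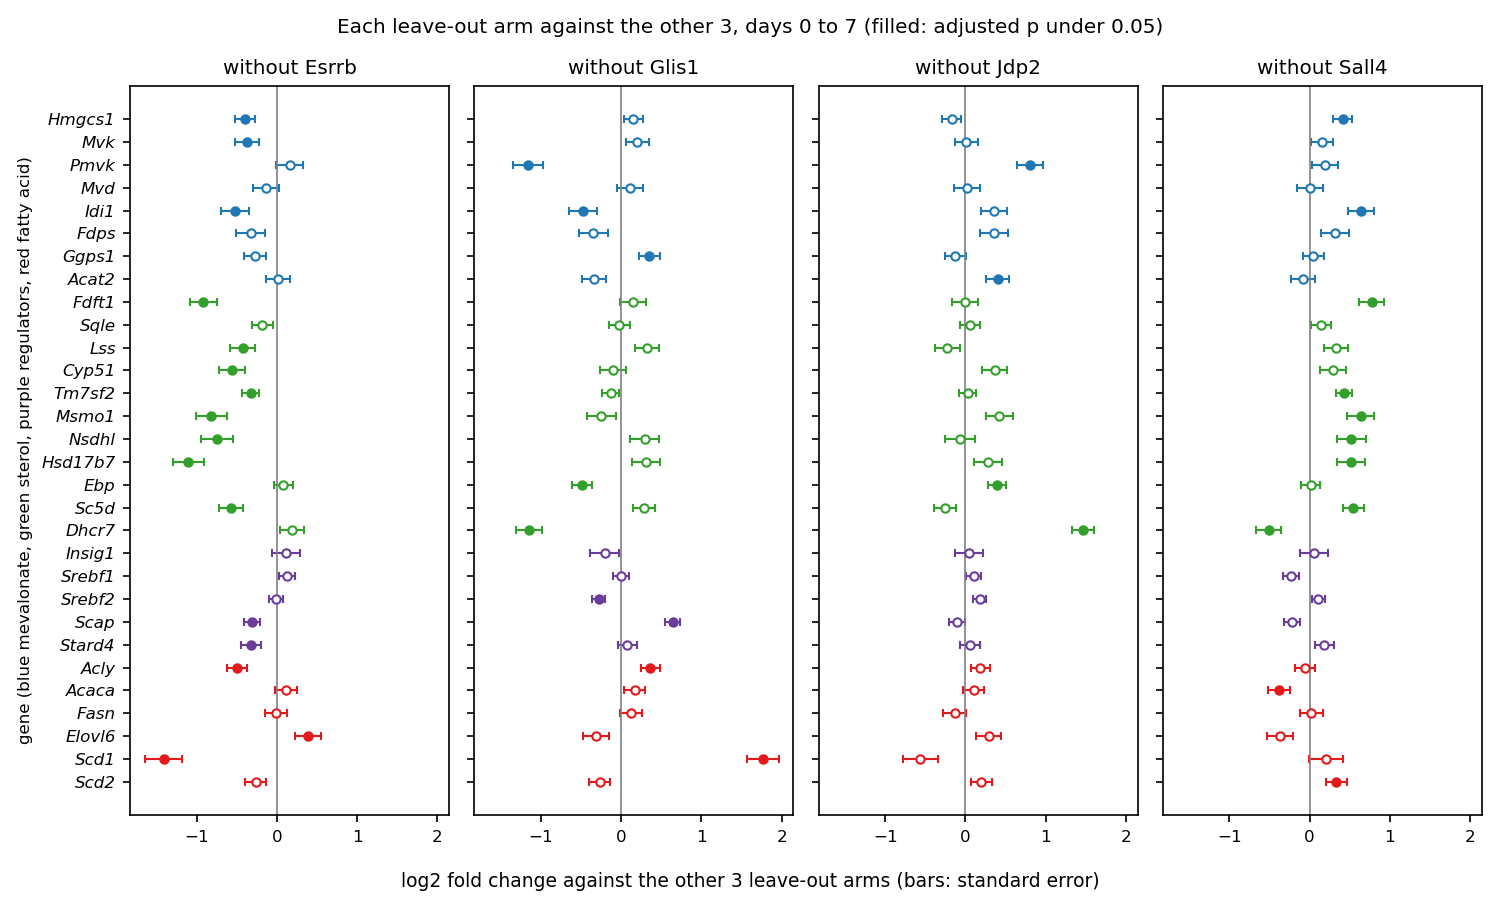
Log2 fold change of each of the 30 genes in each leave-out arm against the other 3 over days 0 to 7 (panels; points coloured by role; bars, standard error), with filled points for adjusted p under 0.05. Most sterol enzymes lie left of 0 without Esrrb and right of 0 without Sall4. Scd1, Dhcr7 and Pmvk lie farthest out without Glis1, and Dhcr7 and Pmvk without Jdp2.

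**Figure D5:**
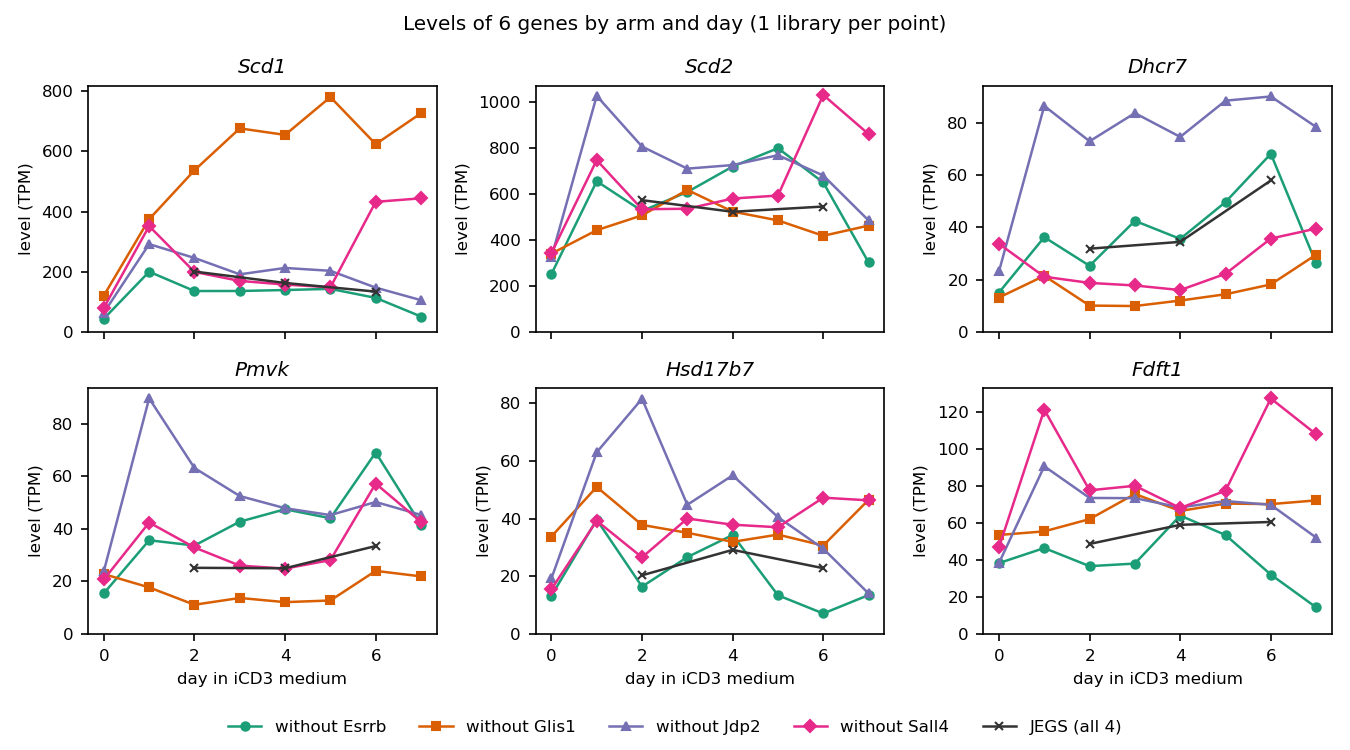
Level in TPM of Scd1, Scd2, Dhcr7, Pmvk, Hsd17b7 and Fdft1 by day in iCD3 medium, 1 library per point, for the 4 leave-out arms and JEGS (lines). Scd1 without Glis1 reaches 781 TPM on day 5, Dhcr7 without Jdp2 is at 72.9 TPM or more from day 1, and Fdft1 without Esrrb is at 14.4 TPM on day 7.

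Other lipid genes differed between the arms as well. Of all 18135 genes 3626 passed as higher without Glis1, and the shares for the arms without Esrrb and without Sall4 stand above. Of 19 genes of fatty acid oxidation, the opposite route, 15 were higher without Glis1, 15 lower without Esrrb, 11 lower and 1 higher without Jdp2, and 12 higher and 2 lower without Sall4. Ppara, a nuclear receptor that drives oxidation, differed by 5.14 ± 0.31 without Glis1 (adjusted p = 1.39e-13). Of 20 genes of sterol transport and storage 11 were higher and 3 lower without Glis1, 11 higher and 1 lower without Sall4, 2 higher and 15 lower without Esrrb, and 6 higher and 7 lower without Jdp2. Nceh1, a cholesteryl ester hydrolase, was lower without Esrrb by -2.43 ± 0.21 (adjusted p = 4.44e-10). Thrsp, a partner of lipogenic enzymes, differed by 6.14 ± 0.48 without Glis1 (adjusted p = 1.45e-10), with the same sign as Scd1. Of the 13 further regulators 3 were higher and 2 lower without Esrrb, 2 higher and 1 lower without Jdp2, and 2 higher and 5 lower without Sall4. Without Glis1 0 of them passed in edgeR, with 1 at an unadjusted p under 0.05 and 1 each by DESeq2 and limma-trend. The 10 adipocyte markers in the arm without Glis1 summed to 18.0 to 53.4 TPM with a median of 36.6, against medians of 17.2, 15.8 and 27.4 TPM without Esrrb, Jdp2 and Sall4. Of the 5 tested, 2 were higher without Glis1 and 2 higher without Sall4. Adipoq, Cfd and Lep were listed at 0 in all libraries without Glis1, Plin1, Cidec and Retn were not, and the part of these markers in the level of Scd1 was not tested.

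With all 4 factors the set lay largely within the range of the leave-out arms. On days 2, 4 and 6 the JEGS libraries summed to 3234, 3172 and 3120 TPM over the 30 genes, against 2722 to 4931 TPM in the leave-out arms on these days. For 28 of the 30 genes all 3 JEGS values lay inside the range of the 12 leave-out libraries of these days. The share of all genes for which this held was not computed, so the count says nothing particular about the 30. The others were Tm7sf2, a sterol reductase, at 39.7 TPM on day 2 against a lowest leave-out value of 44.1, and Srebf1, at 112 TPM on day 4 against a highest of 107. Against the mean of the 4 arms none of the 30 passed in edgeR, where 4.06% of 16603 genes did, and the estimates ran from -0.64 to 0.40 with a median of -0.08, against 0.02 over all genes. At an unadjusted p under 0.05 there were 3, and DESeq2 and limma-trend called 0. On simulated data the edgeR test recovered 59 of 100 genes with a log2 change of 1. In the same comparison 6 of 6 pluripotency markers were higher in JEGS by edgeR, 3 passed by DESeq2 and 2 by limma-trend, and of 15 cell cycle genes 11 were higher by edgeR, with 11 and 0 passing by the other tools.

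The 4 comparisons of JEGS with single arms share the JEGS libraries. None of the 30 passed against the arm without Esrrb (6.63% of all genes) or against the arm without Jdp2 (2.82%) in edgeR, with 1 and 5 at an unadjusted p under 0.05 and 0 in both by DESeq2 and by limma-trend. Against the arm without Jdp2 1 passed when any of 3 libraries was left out: day 2 or day 6 without Esrrb, or day 6 without Jdp2. Against the arm without Glis1 3 passed, where 19.9% of all genes did. Scd1 was at 201, 163 and 134 TPM in JEGS on days 2, 4 and 6 and at 537, 655 and 624 TPM without Glis1 (-2.01 ± 0.30, adjusted p = 0.000246). Dhcr7 was at 31.9, 34.5 and 57.9 TPM in JEGS and at 10.1, 12.0 and 18.2 TPM without Glis1 (1.45 ± 0.24, adjusted p = 0.000583). Scap was at 37.1, 34.3 and 37.2 TPM in JEGS and at 63.7, 50.1 and 50.9 TPM without Glis1 (-0.73 ± 0.17, adjusted p = 0.0072). For all 3 genes the JEGS values and the values without Glis1 did not overlap, but they were picked by a test on the same libraries. The share of all genes without overlap was not computed, so this adds no support.

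Against the arm without Sall4 4 of the 30 passed, where 23.8% of all genes did. Fdft1 was at 48.7, 59.0 and 60.55 TPM in JEGS and at 77.65, 68.1 and 127 TPM without Sall4 (-0.90 ± 0.22, adjusted p = 0.00763). Idi1 (-0.91 ± 0.29, adjusted p = 0.0336) and Tm7sf2 (-0.67 ± 0.18, adjusted p = 0.014) were lower in JEGS too, and Dhcr7 was higher (0.83 ± 0.23, adjusted p = 0.0147). This count rested on single libraries: it was 2 without the JEGS library of day 4, 2 without that of day 6, 2 without the day 6 library of the arm without Sall4 and 7 without the day 6 library of the arm without Esrrb. The JEGS files bear a repeat mark that the others lack, and the labels name 2 sequencing kits without assigning them. Kit or run and the presence of all 4 factors therefore cannot be told apart.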

How the data were processed

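RNA was measured by mRNA sequencing in 35 libraries, 1 per arm and day, of TRIzol-extracted total RNA. The submitters' processing notes name bcl2fastq, Bowtie2, RSEM and mm10, with no versions; the annotation is not given in the sources used here. The authors deposited per library the RSEM expected counts of 54752 genes, which are estimated and not normalized, and the TPM values, both per the file headers. RSEM splits reads shared between genes, so members with near copies are less certain. The FPKM values the authors deposited were not used.

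Samples were grouped by their titles. A treatment label gives all 4 factors and 72 hours to every sample, which the titles contradict, and the series' design text counts 10 samples; the delivered factors followed the titles. Identifiers were matched to symbols for 54723 genes. Expected counts were rounded and tested in edgeR 4.0.16 (R 4.3.3) (glmQLFit and glmQLFTest) after TMM scaling, keeping genes that reached 1 CPM in 3 libraries or more, with Benjamini-Hochberg adjustment over all genes at 0.05. Day 1 and the arms came from 1 fit of 32 libraries with arm and day as terms, the later course from 24 libraries by arm and period (days 1 to 3 and 5 to 7), and JEGS from 15 libraries with day as a term. In the fits of 32 and 15 libraries a library's residual from arm and day thus served as the error. In the fit of 24 libraries, which had no day term, the spread among the days of an arm and period did. The comparisons numbered 15, of which 5, covering each of the fits, were also run on simulated data with known changes. Of 100 genes given a log2 change of 1, 98 were recovered for late against early days and 91 for the arm without Esrrb. The number was 59 for JEGS against the mean, 56 for day 1 and 46 for the later course without Sall4. A member that did not pass is therefore not shown to be unchanged. Alternatives were DESeq2 1.42.0, limma 3.58.1 on log2(TPM + 1), DESeq2 size factors, no filter, no day term, other days, all 35 libraries, and leaving out each library. Fold changes were printed for at most 6 members in each of the 15 comparisons, those with the largest change past the threshold. They were also printed for members that did not pass where a role group was described in full, and for at most 2 genes of any other list. Scd1, Nsdhl and Lss, printed for days 2 and 3 against days 6 and 7 without Sall4, had the smallest adjusted p there. Hsd17b7 (1.3221) and Insig1 (1.3102) changed slightly more than Lss (1.3054). The members and lists were chosen with earlier results of these data known. Promoter windows came from RefSeq (GRCm38.p6), and windows of 50 bases were used to count transcript sequence shared between genes. With 1266379 to 3608456 counts per library, some members had few counts in single libraries. The lowest were 14 for Pmvk, 18 for Mvk, 21 for Ebp and 24 for Ggps1. Tm7sf2 went down to 25 and Dhcr7 to 30, so counting error was not small for such members. No batch term could be fitted, because the labels do not assign the 2 sequencing kits (150 and 75 cycles) to libraries.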

Additional observations from a re-analysis of the deposited data

Results flagged for a closer look

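For each member in each leave-out arm, the highest and the lowest of the 8 libraries were compared with the rest by Dixon's criterion (gap over range above 0.526), although each library is another day. Of 120 such groups 21 stood out, over 18 members, where chance gives about 1 in 20. Of the 21, 18 were the lowest value of the arm and fell on day 0, before the change of medium.

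Without Esrrb, Srebf1 was at 36.77 TPM on day 0, with the nearest other day at 74.41, and Stard4 at 9.41 TPM, with the nearest at 22.25. On day 7 Fdft1 was at 14.43 TPM, with the nearest at 32.14. Without Glis1, the day 0 levels in TPM were 24.37 for Mvd, 46.22 for Acat2, 45.69 for Sqle, 33.54 for Nsdhl, 111.61 for Acly, 138.04 for Fasn and 121.15 for Scd1. The nearest other day of Scd1 was at 374.9 TPM and that of Fasn at 284.12 TPM.

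Without Jdp2, the day 0 levels in TPM were 61.46 for Hmgcs1, 17.26 for Tm7sf2, 23.14 for Dhcr7, 23.52 for Insig1, 78.62 for Srebf2 and 17.23 for Acaca. In this arm 2 values stood out as high, Lss on day 1 at 148.99 TPM, with the nearest at 63.21, and Scap on day 5 at 53.12 TPM, with the nearest at 41.46. The criterion was applied to TPM only. In expected counts Lss was at 415 on day 1 and 392 on day 2, in libraries of 1865680 and 2249268 counts. Scap was at 244 on day 4 and 249 on day 5, in libraries of 2253785 and 2146546 counts. Without Sall4, the day 0 levels in TPM were 71.52 for Hmgcs1, 21.48 for Tm7sf2 and 26.05 for Nsdhl.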

How the results depend on the processing

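The counts of members that passed on day 1 (25), and without Glis1 (9), stayed within 1.5 times under every alternative run, leaving out each library included. Without the filter on low counts the count went from 3 to 8 for late against early days, from 4 to 8 without Jdp2, and for JEGS from 0 to 1 against the mean, 0 to 1 against the arm without Esrrb, 3 to 6 against that without Glis1, 0 to 5 against that without Jdp2 and 4 to 10 against that without Sall4; for the difference in the later course it went from 0 to 3 (without Esrrb), 5 (Glis1), 8 (Jdp2) and 5 (Sall4). With limma-trend it was 1 for late against early days, 10 without Esrrb, 4 without Sall4 and 1 for JEGS against the arm without Sall4. With no day term it was 9 without Esrrb, 2 without Jdp2, 4 without Sall4 and 2 for JEGS against the arm without Sall4. With days 2 and 3 against 6 and 7 it was 6 for late against early days, and 7 (without Esrrb), 7 (Jdp2) and 19 (Sall4) for the difference. The cause was not tested. Leaving out each library in turn gave 20 to 27 on day 1, 2 to 9 late against early, 9 to 16 without Esrrb, 6 to 12 without Glis1, 3 to 8 without Jdp2, 8 to 13 without Sall4, and for JEGS 0 to 0 against the mean, 0 to 0, 3 to 4, 0 to 1 and 2 to 7 against the arms without Esrrb, Glis1, Jdp2 and Sall4. For the difference in the later course it gave 0 to 4, 0 to 2, 0 to 0 and 0 to 0 in the same order of arms. Single genes were followed under these settings only for 82 results that had already passed with the largest changes, from the members and the other lists. Of their 3022 recomputed values 75 lost their call and 0 changed direction. Having been picked by size, they say nothing about genes with smaller changes. The median of all genes moved by over 0.1 only without the filter, to -0.16 without Esrrb and to -0.12 for JEGS against the mean. Arm, day or period was already a term of each fit. Beyond that, no paired analysis was possible because the labels give no replicate numbers.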
